A study of Rattus norvegicus with 28 samples.

Results

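The genes described here are the collagen and laminin chains measured in the kidneys of female rats. They were taken by name: every gene whose symbol in the platform annotation is that of a collagen chain or of a laminin alpha, beta or gamma chain, each represented by its probe set of highest mean. This gave 51 of 14217 named genes, 41 collagen chains and 10 laminin chains, with 72 probe sets between them. Of these genes, 34 had 1 probe set and 17 had several. Col4a3 was not analysed here.

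Kidney RNA of the SBN/y and SBH/y strains was hybridised to 28 Affymetrix rat arrays, 7 in each of 4 groups. The groups were SBN/y after a sham operation, with 2 kidneys; SBN/y after right uninephrectomy, the removal of that kidney, with 1 kidney; and the same pair of states in SBH/y. All animals were female, ate standard chow, had been operated on after weaning and were 5 months old, 4 months past the operation, when the kidneys were frozen. SBN/y and SBH/y are the Sabra strains selected for resistance and for susceptibility to salt-induced hypertension, and the study's title names proteinuria as its subject. Nothing in the labels ties an array to an animal of its own; the p-values therefore speak of the spread among these arrays, which may be in part technical.

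Collagens are trimers of chains that wind into a triple helix. The fibrillar chains build the interstitial fibres that accumulate in renal scarring, collagen IV builds the sheet of basement membranes, and collagen VI forms beaded filaments at the border of both. Laminins are trimers of an alpha, a beta and a gamma chain that polymerise at the cell surface and anchor the basement membrane to its cells. In the glomerular filter the mature membrane is made of Col4a3, Col4a4 and Col4a5 together with a laminin of Lama5, Lamb2 and Lamc1, and inherited loss of these collagen IV chains or of Lamb2 leads to protein in the urine.

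The deposited values were log2 intensities, with array medians of 5.72 to 5.77 and correlations of 0.985 to 0.997 between arrays. Kidney genes were at the top of the range, Umod at 13.25 and Lrp2 at 12.50, and the adrenal gene Cyp11b1 was at 2.87. SBH/y replicate 6 with both kidneys had the narrowest interquartile range, 3.24 where the others lay between 3.27 and 3.60, and the lowest mean correlation with its group, 0.9942. Replicate 7 of that group had an interquartile range of 3.38 and a mean correlation of 0.9961. An alternative fit, chosen after seeing the data, left out both replicates, and calls that were lost without both are named below. Of the 51 chains, 30 had means above the lowest array median of 5.72 in all 4 groups. The means of another 19 were below it in all 4, where a difference in the log2 values gives no exact fold of RNA and a missing call does not show that the RNA was level.

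Between the strains with both kidneys present, 9 chains were higher in SBH/y and 7 lower at a limma adjusted p under 0.05. Among all named genes 11.8% were called higher and 9.69% lower. After uninephrectomy 12 chains were higher and 6 lower in SBH/y, against 14.9% and 11.9% of all genes. On the higher side the chains' share was above that of all genes in both states, and on the lower side it was above it with both kidneys and close to it after uninephrectomy. Whether the chains differ from other genes was not tested. The median difference over the chains was -0.05 with both kidneys and 0.02 after uninephrectomy, beside -0.01 and 0.00 over all named genes. The 2 strain comparisons use different arrays: 12 chains were called in both and in the same direction, which is 75% of the first list and 66.7% of the second, and 0 in opposite directions.

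With uninephrectomy 10 chains were called in SBH/y and 1 in SBN/y. In SBH/y 8 chains rose and 2 fell, where 4.85% of all genes were called higher and 5.51% lower. In SBN/y 0 rose and 1 fell, against 0.288% and 0.317% of all genes. At an unadjusted p under 0.05 limma gave 5 chains higher and 3 lower there, beside 639 and 753 of 14217 named genes. In SBH/y that threshold gave 14 chains higher and 7 lower, beside 1801 and 1741 of the named genes. The difference between the strains' responses was itself tested. At a limma adjusted p under 0.05 it was called positive for 3 chains and negative for 1, beside 0.964% and 1.1% of all genes. Leaving out 1 array moved these counts to between 1 and 5 and between 0 and 2, and 3 of the 4 calls were lost in some of those fits. At an unadjusted p under 0.05 the difference was positive for 9 chains and negative for 4, beside 1071 and 1001 of the named genes. Median effects over the chains were -0.01 in SBN/y, 0.04 in SBH/y and 0.05 for the difference, beside -0.00, 0.01 and 0.01 over all named genes. The strain and uninephrectomy comparisons share arrays, so their values for a gene are not independent. The kidney is bulk tissue, in which fewer cells of a type and less RNA per cell cannot be told apart.

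**Figure D1:**
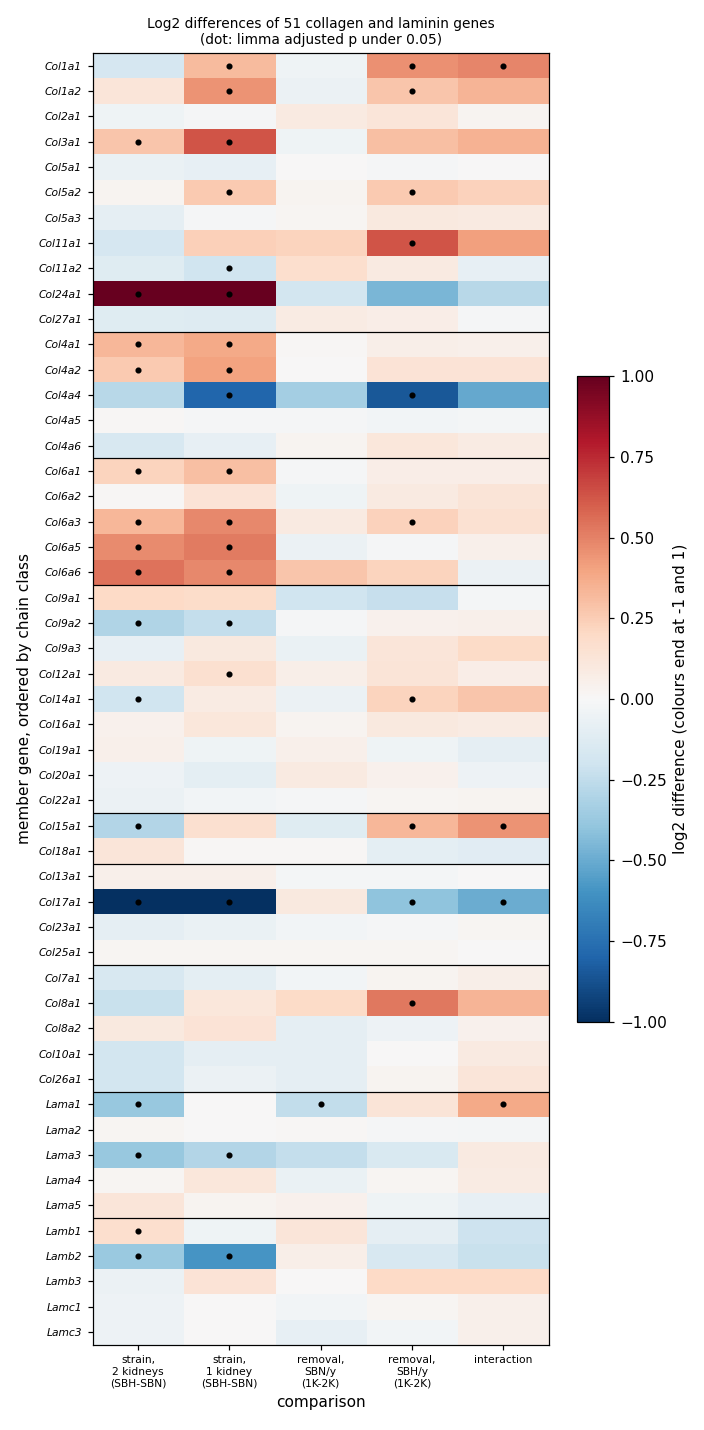
Log2 differences of the 51 collagen and laminin genes (rows, grouped by chain class) in 5 comparisons (columns), with red for positive, blue for negative and a dot where the limma adjusted p was under 0.05. Colours end at -1 and 1. The removal column of SBN/y holds 1 dot, at Lama1, and that of SBH/y holds 10.

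**Figure D2:**
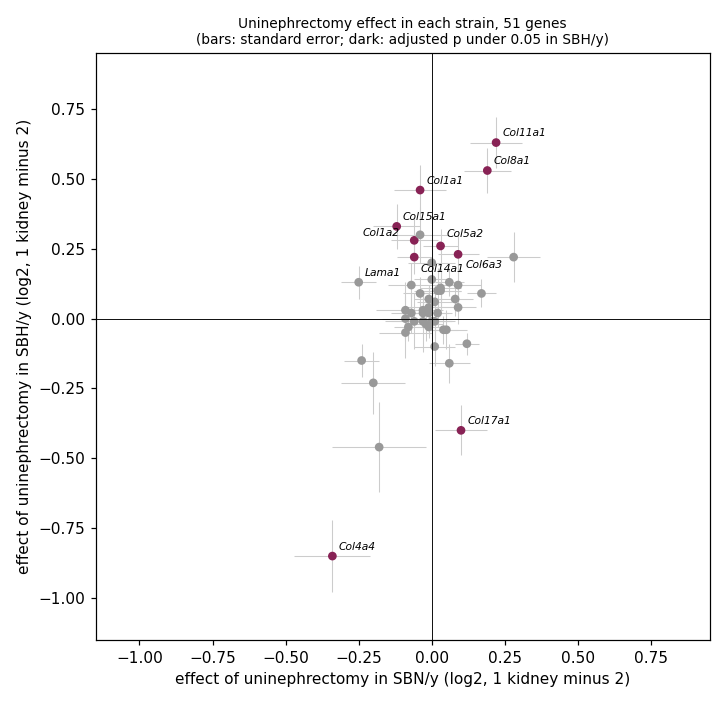
Each point is 1 of the 51 genes, with the log2 effect of uninephrectomy in SBN/y on the horizontal axis and that in SBH/y on the vertical axis, and bars for the standard error. Dark points were called in SBH/y: Col11a1 lay highest at 0.63 and Col4a4 lowest at -0.85.

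Of the 11 fibrillar chains measured, 4 rose in the remaining kidney of SBH/y, Col1a1, Col1a2, Col5a2 and Col11a1, 0 fell and 7 were not called. All named genes gave 4.85% higher and 5.51% lower there. Effects over the class ran from -0.46 for Col24a1 to 0.63 for Col11a1. In SBN/y 0 of the 11 were called, with 2 higher and 0 lower at an unadjusted p under 0.05. Col1a1, the main chain of type I collagen, ranged from 7.07 to 7.54 (median 7.31) in SBH/y with both kidneys and from 7.53 to 7.93 (median 7.79) after uninephrectomy. The ranges met only at their edges. In SBN/y the same gene ran from 7.20 to 7.65 (median 7.50) with both kidneys and from 7.04 to 7.70 (median 7.53) after the operation, so that those groups overlapped almost fully. The effect was 0.46 ± 0.09 (SE) in SBH/y, 1.37-fold, with a limma adjusted p of 0.00101, and -0.04 ± 0.09 in SBN/y. The difference between these effects was 0.49 ± 0.13 (adjusted p = 0.0397), and this call was lost when any 1 of 18 of the 28 arrays was left out, with values of 0.42 to 0.54. A second probe set for Col1a1 did not repeat the rise: its effect in SBH/y was -0.02 ± 0.09 (adjusted p = 0.945). With the mean of both probe sets the effect was 0.22 (adjusted p = 0.106), so the change of Col1a1 rests on 1 of 2 probe sets.

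Col1a2, the partner chain of Col1a1 in the type I trimer, ranged from 8.27 to 8.71 (median 8.46) in SBH/y with both kidneys and from 8.45 to 8.92 (median 8.77) after uninephrectomy. The median of the operated arrays lay above the highest of the others. The effect was 0.28 ± 0.08 with a limma adjusted p of 0.0243, and a second probe set gave 0.30 ± 0.07 (adjusted p = 0.00451). The call on the first probe set was lost without SBH/y replicate 4 or 7 with both kidneys or without replicate 5 or 6 after uninephrectomy, with effects of 0.25 to 0.33 over all such fits, and without replicates 6 and 7 with both kidneys together (0.26, adjusted p = 0.0597). In SBN/y Col1a2 was not called and its groups overlapped, from 8.08 to 8.52 (median 8.43) and from 8.07 to 8.59 (median 8.24).

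Col3a1, which forms the fine reticular fibres laid down with type I collagen, missed the threshold in SBH/y by little. It ranged from 8.69 to 9.12 (median 8.88) with both kidneys and from 8.85 to 9.41 (median 9.18) after uninephrectomy, an effect of 0.30 ± 0.10 with a limma adjusted p of 0.0551. It was higher in SBH/y than in SBN/y in both states. The SBN/y arrays reached 8.86 with both kidneys (lowest 8.15, median 8.58) and 8.79 after uninephrectomy (lowest 8.21, median 8.52). After uninephrectomy the strains did not overlap, with a difference of 0.63 ± 0.10 (adjusted p = 1.18e-05). With both kidneys it was 0.28 ± 0.10 (adjusted p = 0.045), a call lost on leaving out any 1 of 8 of the 14 arrays.

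Col5a2, a chain of the type V collagen that sets fibril diameter, rose by 0.26 ± 0.06 in SBH/y (limma adjusted p = 0.00689), from a range of 7.21 to 7.56 (median 7.37) to one of 7.49 to 7.80 (median 7.64). Its second probe set moved by 0.11 ± 0.09 and was not called. Col5a1, its partner, ran from 6.95 to 7.29 and from 6.89 to 7.27 in those groups, with an interval of -0.14 to 0.13 for the effect. The type V partners therefore gave unequal values in the same arrays, Col5a2 called and Col5a1 not, and the difference between them was not tested.

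Col11a1, a minor fibril chain best known from cartilage, had the largest rise of any chain in SBH/y. It ran from 5.21 to 5.60 (median 5.48) with both kidneys and from 5.73 to 6.32 (median 6.11) after uninephrectomy, with no overlap. The effect was 0.63 ± 0.09 (limma adjusted p = 4.19e-05), and another of its 3 probe sets rose by 0.59 ± 0.11 (adjusted p = 0.000701). In SBN/y the ranges were 5.35 to 5.90 (median 5.64) and 5.58 to 6.17 (median 5.84), an effect of 0.22 ± 0.09 that did not pass (adjusted p = 0.438). The contrast of these effects gave 0.41 ± 0.13 and did not pass either (adjusted p = 0.135). Means were below the lowest array median in 2 of the 4 groups. Col2a1, Col5a3, Col11a2 and Col27a1, further fibrillar chains, had effects of 0.07 to 0.12 in SBH/y and were not called there.

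**Figure D3:**
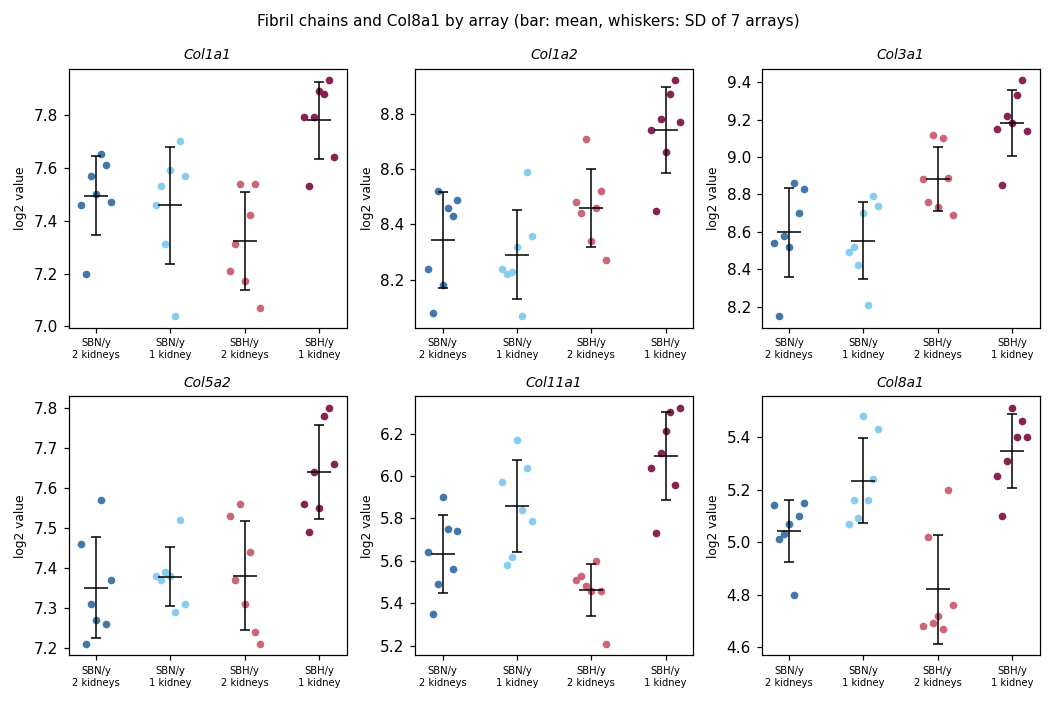
Log2 values of 5 fibrillar chains and of Col8a1 on each array, by group (7 arrays each), with the mean and SD. The SBH/y arrays with 1 kidney sit highest for Col1a1, Col1a2, Col3a1, Col5a2 and Col11a1 by group mean, and for Col11a1 they do not overlap the SBH/y arrays with 2 kidneys.

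Outside the fibrillar class, 4 further chains rose after uninephrectomy in SBH/y. Col8a1, a short-chain collagen of vessel walls and of Descemet's membrane, went from 4.67 to 5.20 (median 4.72) up to 5.10 to 5.51 (median 5.40). The effect was 0.53 ± 0.08 (limma adjusted p = 6.93e-05) and all 4 group means were below the lowest array median. In SBN/y its effect was 0.19 ± 0.08 (adjusted p = 0.45), from 4.80 to 5.15 (median 5.07) with both kidneys to 5.07 to 5.48 (median 5.16). Col8a2, its partner in the hexagonal lattice, was not called, at SBH/y medians of 7.64 and 7.65.

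Col15a1, a proteoglycan collagen that bridges basement membranes to fibrils, was called for strain in the 2-kidney state and for uninephrectomy in SBH/y. With both kidneys it was lower in SBH/y, from 6.55 to 7.13 (median 6.77) against 6.92 to 7.30 (median 7.16) in SBN/y, by -0.29 ± 0.08 (limma adjusted p = 0.011). That call was lost with the mean of its 2 probe sets (-0.21, adjusted p = 0.108). After uninephrectomy SBH/y ran from 6.79 to 7.34 (median 7.21) and SBN/y from 6.91 to 7.13 (median 7.01), a difference of 0.16 ± 0.08 that was not called (adjusted p = 0.168). The effect was 0.33 ± 0.08 in SBH/y (adjusted p = 0.00846) and -0.12 ± 0.08 in SBN/y. Their difference was 0.45 ± 0.11 (adjusted p = 0.0393), lost when any 1 of 20 of the 28 arrays was left out, with values of 0.40 to 0.51. The second probe set gave -0.13 ± 0.11 between the strains with both kidneys, 0.31 ± 0.11 for uninephrectomy in SBH/y and 0.34 ± 0.16 for the difference, none called.

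Col14a1, which coats fibrils and limits their fusion, was dim in all groups. It was lower in SBH/y with both kidneys by -0.20 ± 0.06 (limma adjusted p = 0.0109) and rose there by 0.22 ± 0.06 after uninephrectomy (adjusted p = 0.0137). The difference between the strains' effects was 0.28 ± 0.08 and was not called (adjusted p = 0.0738). Its second probe set gave -0.13 ± 0.06, 0.14 ± 0.06 and 0.12 ± 0.09 in these comparisons and was called in none. Of the other 8 fibril-associated chains, 0 were called for uninephrectomy in either strain, and at an unadjusted p under 0.05 the whole class of 9 gave 2 higher and 1 lower in SBH/y.

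Collagen IV split by chain. Col4a4, a chain of the mature glomerular membrane made by podocytes, fell in the remaining kidney of SBH/y, while Col4a1 and Col4a2, the ubiquitous pair, were called between the strains and not for the operation. Col4a4 ranged from 6.87 to 7.29 (median 6.97) in SBH/y with both kidneys. After uninephrectomy it ranged from 5.81 to 6.95 (median 6.06), where 6 of the 7 arrays lay at or below 6.41 and replicate 2 alone reached into the other group. The effect was -0.85 ± 0.13, 1.80-fold lower (limma adjusted p = 7.8e-05), and without replicate 2 it was -0.98. In SBN/y the ranges were 7.04 to 7.86 (median 7.19) and 6.84 to 7.33 (median 6.91), with an effect of -0.34 ± 0.13 that was not called (adjusted p = 0.382). The difference between the effects was -0.51 ± 0.19 and was not called (adjusted p = 0.206), so a stronger fall in SBH/y was not shown.

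Podocyte markers moved beside Col4a4. Of the 6 measured, 5 fell in SBH/y after uninephrectomy, where 5.51% of all named genes were called lower. The slit-diaphragm gene Nphs1 fell by -0.62 ± 0.10, the transcription factor Wt1 by -0.55 ± 0.07 and Ptpro by -0.42 ± 0.06. Synpo fell by -0.34 ± 0.06 and Podxl by -0.24 ± 0.06. The mean level of the 6 per array was 7.69 to 8.11 in SBH/y after uninephrectomy and 8.20 to 8.30 with both kidneys. In SBN/y 0 of the 6 were called, nor were any at an unadjusted p under 0.05, and the mean levels were 8.07 to 8.30 after uninephrectomy and 8.14 to 8.44 with both kidneys. Their part in the fall of Col4a4 was not tested. Col4a5, the partner of Col4a4 in the glomerular trimer and also made by other cells, stayed between 9.73 and 9.97 on all 28 arrays, with medians of 9.82, 9.83, 9.86 and 9.83. The interval for its effect in SBH/y was -0.11 to 0.05. Col4a6, a dim chain of smooth muscle and epithelial membranes, was not called in any comparison.

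Col4a1 and Col4a2 were higher in SBH/y in both states. Col4a1 ranged from 9.33 to 9.53 (median 9.47) in SBN/y and from 9.61 to 9.97 (median 9.76) in SBH/y with both kidneys, and from 9.27 to 9.55 (median 9.50) and 9.72 to 10.01 (median 9.85) after uninephrectomy. No SBN/y array reached an SBH/y array. The strain differences were 0.33 ± 0.06 (limma adjusted p = 4.74e-05) and 0.38 ± 0.06 (adjusted p = 4.7e-06), and a second probe set was also called in both, at 0.44 ± 0.08 and 0.27 ± 0.08. Col4a2 ran from 8.68 to 8.87 (median 8.77) and from 8.87 to 9.19 (median 9.03) with both kidneys, which did not overlap before rounding. After uninephrectomy it ran from 8.55 to 8.95 (median 8.73) in SBN/y and from 9.05 to 9.27 (median 9.16) in SBH/y. Its differences were 0.26 ± 0.06 (adjusted p = 0.000872) and 0.40 ± 0.06 (adjusted p = 1.33e-06). Uninephrectomy effects of the pair lay between 0.00 and 0.14 and were not called. The second probe set of Col4a1 gave -0.21 ± 0.08 in SBH/y (adjusted p = 0.0829) and -0.04 ± 0.08 in SBN/y, not called either.

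The pair is transcribed head to head from 1 short shared region, and Col4a4 stands head to head with Col4a3. In RefSeq's annotation of the build GRCr8 the starts of Col4a2 and Col4a1 are 76 bases apart, and those of Col4a4 and Col4a3 412 bases apart. The stretch between the first pair of starts is chr16:84885521-84885596, shown on the plus strand, and the 250 bases before the start of Col4a4 are chr9:91323578-91323827, on the minus strand. They are shown because the neighbours Col4a1 and Col4a2 were higher together in SBH/y, whereas Col4a4 fell there with the operation. Capitals mark the GC-box letters GGGCGG, on either strand (CCGCCC where read from the other one). The Col4a4 stretch holds neither these letters nor those of the TATA and CCAAT boxes searched below, on either strand.
between Col4a2 and Col4a1: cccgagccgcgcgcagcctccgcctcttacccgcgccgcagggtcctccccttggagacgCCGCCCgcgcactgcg
Col4a4: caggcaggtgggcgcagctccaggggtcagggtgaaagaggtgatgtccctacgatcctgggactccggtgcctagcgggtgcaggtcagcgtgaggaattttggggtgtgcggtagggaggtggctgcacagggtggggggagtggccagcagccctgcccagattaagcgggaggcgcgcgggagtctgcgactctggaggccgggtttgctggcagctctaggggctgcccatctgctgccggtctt

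**Figure D4:**
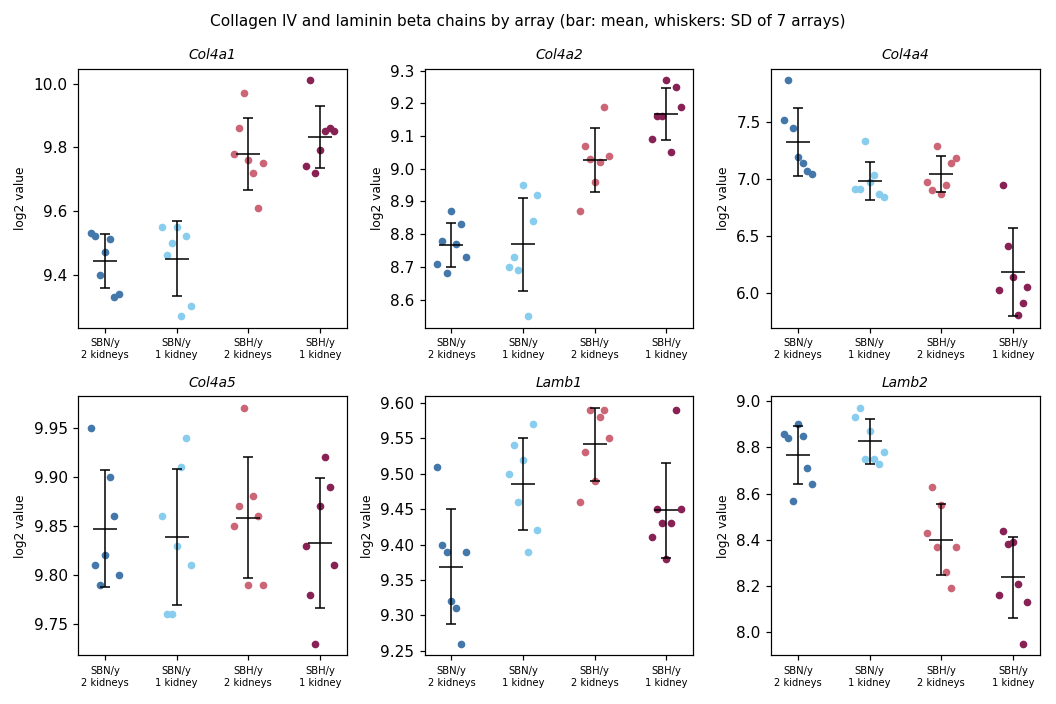
Log2 values of 4 collagen IV chains and of Lamb1 and Lamb2 on each array, by group (7 arrays each), with the mean and SD. Col4a4 is lowest in SBH/y with 1 kidney (median 6.06), Col4a1 and Col4a2 are higher in both SBH/y groups, Col4a5 stays between 9.73 and 9.97, and Lamb2 is lower in both SBH/y groups.

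Among the 10 laminin chains, 1 was higher and 3 lower in SBH/y with both kidneys, and 0 higher and 2 lower after uninephrectomy. Over all named genes the shares were 11.8% and 9.69%, then 14.9% and 11.9%. Uninephrectomy changed 0 of the 10 in SBH/y, where 2 were higher and 3 lower at an unadjusted p under 0.05, and 1 in SBN/y. Lamb2, the beta chain of the mature glomerular laminin, ranged from 8.57 to 8.90 (median 8.84) in SBN/y and from 8.19 to 8.63 (median 8.37) in SBH/y with both kidneys. After uninephrectomy it ranged from 8.73 to 8.97 (median 8.78) and from 7.95 to 8.44 (median 8.21), with no overlap. It was lower in SBH/y by -0.37 ± 0.07 (limma adjusted p = 0.000399) and by -0.59 ± 0.07 (adjusted p = 2.17e-07). The effect of uninephrectomy on Lamb2 was -0.16 ± 0.07 in SBH/y and was not called (adjusted p = 0.188).

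Lamb1, the beta chain of the laminins of tubules and of the immature glomerulus, was higher in SBH/y with both kidneys. It ran from 9.26 to 9.51 (median 9.39) in SBN/y and from 9.46 to 9.59 (median 9.55) in SBH/y, overlapping at the edges, a difference of 0.17 ± 0.04 (limma adjusted p = 0.00373). After uninephrectomy it ran from 9.39 to 9.57 (median 9.50) and from 9.38 to 9.59 (median 9.43), a difference of -0.04 ± 0.04. The difference between the uninephrectomy effects was -0.21 ± 0.06 and was not called (adjusted p = 0.0701).

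Lama1, the alpha chain of embryonic and tubular laminin, had the smallest interaction p of the 51 chains. In SBN/y it ran from 6.17 to 6.43 (median 6.28) with both kidneys and from 5.88 to 6.27 (median 6.10) after uninephrectomy. In SBH/y it ran from 5.79 to 6.05 (median 5.91) and from 5.94 to 6.20 (median 6.05). With both kidneys the strains did not overlap, at -0.38 ± 0.06 (limma adjusted p = 1.07e-05), and after uninephrectomy the difference was 0.00 ± 0.06. The effect was -0.25 ± 0.06 in SBN/y (adjusted p = 0.0464), a call lost on leaving out any 1 of 10 of the 14 arrays, and 0.13 ± 0.06 in SBH/y (adjusted p = 0.175). Their difference was 0.38 ± 0.08 (adjusted p = 0.0133) and kept its call on leaving out each of the 28 arrays.

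Lama3, the alpha chain of epithelial laminin, was lower in SBH/y in both states. It ran from 7.08 to 7.47 (median 7.20) against 6.75 to 7.04 (median 6.79) with both kidneys, and from 6.75 to 7.26 (median 7.01) against 6.63 to 6.79 (median 6.71) after uninephrectomy. The differences were -0.38 ± 0.06 (limma adjusted p = 4.66e-05) and -0.29 ± 0.06 (adjusted p = 0.0011). Lama5 and Lamc1, which join Lamb2 in the glomerular laminin, were not called in any comparison: their group medians were 8.50 to 8.61 and 8.53 to 8.60. Lama5 had single arrays from 8.42 to 8.77 and Lamc1 from 8.48 to 8.70. Lama2, the chain of muscle and of the mesangium, had group medians of 7.46 to 7.54, and Lama4, the endothelial chain, of 5.83 to 5.92. Single arrays of Lama2 lay between 7.24 and 7.72 and of Lama4 between 5.55 and 6.05, without a call in any comparison.

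Of the 5 collagen VI chains, 4 were called higher in SBH/y in each state and 0 lower, with median differences of 0.33 and 0.48. All named genes gave 11.8% higher and 9.69% lower with both kidneys, and 14.9% and 11.9% after uninephrectomy. Col6a1, a chain of every collagen VI trimer, ran from 7.45 to 7.65 (median 7.48) in SBN/y and from 7.64 to 7.87 (median 7.71) in SBH/y with both kidneys. After uninephrectomy it ran from 7.29 to 7.69 (median 7.49) and from 7.70 to 7.89 (median 7.76). The groups touched or nearly touched at their edges, and the differences were 0.22 ± 0.05 (limma adjusted p = 0.00235) and 0.30 ± 0.05 (adjusted p = 6.42e-05). Col6a2, its constant partner, gave 0.01 ± 0.06 and 0.14 ± 0.06 and was not called.

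Col6a3, the largest chain, ran from 8.10 to 8.52 (median 8.28) in SBN/y and from 8.37 to 8.78 (median 8.60) in SBH/y with both kidneys, and from 8.22 to 8.56 (median 8.27) and 8.62 to 8.99 (median 8.87) after uninephrectomy. The strain differences were 0.33 ± 0.07 (limma adjusted p = 0.00145) and 0.48 ± 0.07 (adjusted p = 8.88e-06), and in the second state the groups did not overlap. A second probe set gave 0.05 ± 0.08 and 0.22 ± 0.08 (adjusted p = 0.746 and 0.0501), not called. On the first probe set Col6a3 also rose with uninephrectomy in SBH/y by 0.23 ± 0.07 (adjusted p = 0.0464), a call lost on leaving out any 1 of 10 of the 14 arrays, and at 0.18 (adjusted p = 0.143) without replicates 6 and 7 with both kidneys. The second probe set gave 0.06 ± 0.08 there.

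Col6a5 and Col6a6, alternative chains that can take the place of Col6a3, were higher as well. Col6a6 ran from 6.73 to 7.52 (median 7.13) against 7.39 to 7.83 (median 7.69) with both kidneys, a difference of 0.54 ± 0.09 (limma adjusted p = 5.56e-05). After uninephrectomy it ran from 7.32 to 7.56 (median 7.34) against 7.55 to 8.07 (median 7.98), a difference of 0.48 ± 0.09 (adjusted p = 0.000192). Col6a5 was dim in all groups, from 4.80 to 5.38 (median 5.29) against 5.50 to 5.98 (median 5.62) and from 5.04 to 5.41 (median 5.08) against 5.30 to 5.97 (median 5.74). Its differences were 0.47 ± 0.10 (adjusted p = 0.000766) and 0.52 ± 0.10 (adjusted p = 0.000161).

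The largest strain differences of any chain were those of Col24a1 and Col17a1, in opposite directions. Col24a1, a fibrillar chain of developing bone and cornea, ran from 6.94 to 8.40 (median 7.87) in SBN/y and from 9.51 to 9.93 (median 9.59) in SBH/y with both kidneys. After uninephrectomy it ran from 7.21 to 7.96 (median 7.71) and from 8.67 to 9.63 (median 9.23). The strains did not overlap in either state, at 1.89 ± 0.16 (limma adjusted p = 1.39e-10) and 1.61 ± 0.16 (adjusted p = 3.63e-09), which is 3.69-fold and 3.05-fold. Its uninephrectomy effect in SBH/y was -0.46 ± 0.16 and was not called (adjusted p = 0.0797).

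Col17a1, the transmembrane collagen of hemidesmosomes, ran from 7.15 to 7.79 (median 7.46) in SBN/y and from 5.65 to 6.17 (median 5.90) in SBH/y with both kidneys. After uninephrectomy it ran from 7.31 to 7.86 (median 7.62) and from 5.24 to 5.68 (median 5.44). No array of either strain reached the other strain. The difference was -1.64 ± 0.09 (limma adjusted p = 5.79e-15) with both kidneys and -2.13 (adjusted p = 7.19e-18) after uninephrectomy. The effect of uninephrectomy was -0.40 ± 0.09 in SBH/y (adjusted p = 0.0049) and 0.10 ± 0.09 in SBN/y (adjusted p = 0.87). The difference between these effects was -0.50 ± 0.13 (adjusted p = 0.0453), lost on leaving out any 1 of 17 of the 28 arrays, with values of -0.55 to -0.44. In SBH/y after uninephrectomy the mean was below the lowest array median. The sizes of the fall of -0.40, of the strain difference of -2.13 and of the -0.50 between the effects are therefore uncertain. Both genes had 1 probe set each, and sequence differences between the strains under the probes were not tested for any chain. Markers of the lining of the renal pelvis, another tissue with hemidesmosomes, were mostly dim: of 6 measured, 1 was above the array median and 1, Upk3a, was called between the strains, at -0.61 ± 0.13 and -0.45 ± 0.13. Their mean level was 4.92 to 5.21 in SBN/y and 4.81 to 5.00 in SBH/y with both kidneys, and 4.84 to 5.40 and 4.68 to 5.11 after uninephrectomy. Their part in the difference of Col17a1 was not tested.

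**Figure D5:**
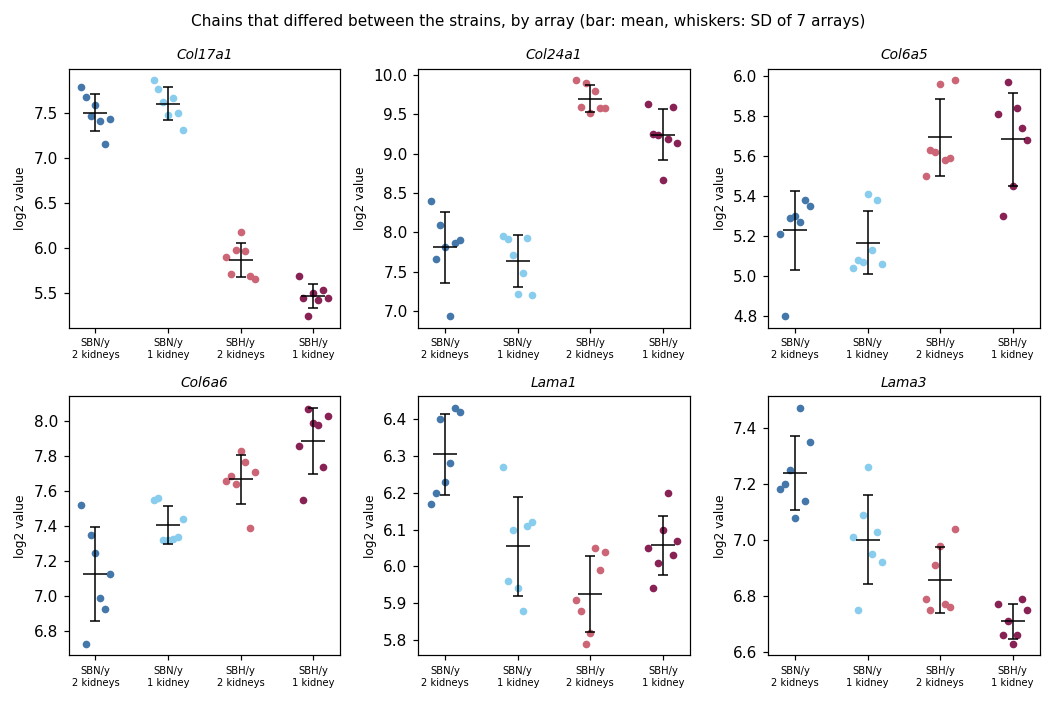
Log2 values of 6 chains that differed between the strains, on each array by group (7 arrays each), with the mean and SD. Col17a1 and Col24a1 separate the strains without overlap in both states, and Lama1 separates them with 2 kidneys only.

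The 250 bases before the start of Col17a1 are chr1:256518858-256519107, on the minus strand of GRCr8. Bases 250 to 131 before the start of Col1a2 are chr4:33518307-33518426, on the plus strand. The bases of Col1a2 nearer its start are not shown, so its marked letters lie at least 131 bases before that start. The Col17a1 and Col1a2 stretches are shown as upstream regions of a chain that fell and of one that rose in SBH/y. Both are RefSeq sequences of the reference strain and not of SBN/y or SBH/y. Capitals mark the TATA-box letters TATAAA and the CCAAT-box letters CCAAT, on either strand (ATTGG where read from the other one).
Col17a1: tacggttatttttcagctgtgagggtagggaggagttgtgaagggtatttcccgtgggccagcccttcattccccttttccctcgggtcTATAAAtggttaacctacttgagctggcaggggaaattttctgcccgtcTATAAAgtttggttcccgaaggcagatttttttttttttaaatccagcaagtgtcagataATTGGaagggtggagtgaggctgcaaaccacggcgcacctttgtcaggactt
Col1a2: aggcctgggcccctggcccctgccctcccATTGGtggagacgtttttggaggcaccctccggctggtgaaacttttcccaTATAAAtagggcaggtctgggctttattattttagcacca

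Over the 250 bases before the start, read for 41 of the 51 chains, GGGCGG was found in 23 (56.1%), against 33.5% of 27456 genes, on both strands. The letters CCAAT were found in 11 chains (26.8%, against 36.1%), and TATAAA in 5 (12.2%, against 14.1%): Col1a2, Col10a1, Col13a1, Col17a1 and Lama4. The Col4a2 and Col4a1 windows overlap, so they share matches. These are matches of letters and say nothing of binding. The 27456 genes were taken from RefSeq whether or not they were on the array, and the differences between the shares were not tested.

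Further strain calls were as follows. Col9a2, a fibril-associated chain of cartilage, was lower in SBH/y by -0.30 ± 0.08 (limma adjusted p = 0.00532) and by -0.24 ± 0.08 (adjusted p = 0.0199), the second lost without SBN/y replicate 7 or SBH/y replicate 5 after uninephrectomy. Col11a2 was lower by -0.20 ± 0.05 after uninephrectomy, at a dim level. Col12a1, which decorates type I fibrils, was higher by 0.16 ± 0.05 after uninephrectomy, and this was lost without SBN/y replicate 5 or SBH/y replicate 4. Neither of its other 2 probe sets was called. In the same state Col1a2 was higher in SBH/y by 0.45 ± 0.08, Col1a1 by 0.32 ± 0.09 and Col5a2 by 0.26 ± 0.06, and Col4a4 was lower by -0.79 ± 0.13. The Col1a1 call was lost with the mean of its 2 probe sets (0.22, adjusted p = 0.0634), and the second probe sets of Col1a1 and Col5a2 gave 0.11 ± 0.09 and 0.14 ± 0.09, not called. Col18a1, the basement membrane source of endostatin, had group medians of 8.65 to 8.86 and was not called in any comparison. Its arrays lay between 8.37 and 8.95. In all, 24 chains were called in at least 1 comparison and 27 in none, Col18a1 among them.

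Agreement between probe sets was limited. There were 49 calls of a chain in a comparison, and in 19 of them the chain had another probe set. Another probe set was called in the same direction in 5 of the 19, for Col1a2, Col4a1 and Col11a1, and in the opposite direction in 0.

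Genes that make and cross-link collagen were called in both directions. Of 24 measured, 5 were higher and 2 lower in SBH/y with both kidneys, and 7 higher and 4 lower after uninephrectomy. All named genes gave 11.8% and 9.69%, then 14.9% and 11.9%. For uninephrectomy in SBH/y, here and for the lists below, they gave 4.85% higher and 5.51% lower. P4ha2, a prolyl hydroxylase subunit, was higher by 0.75 ± 0.05 and 0.85 ± 0.05, the lysyl hydroxylase Plod1 by 0.44 ± 0.05 and 0.38 ± 0.05, and the prolyl hydroxylase P3h3 was lower by -0.74 ± 0.06 and -0.59 ± 0.06. Uninephrectomy in SBH/y raised 4 of the 24 and lowered 2: P4ha1 rose by 0.39 ± 0.08, Plod2 by 0.29 ± 0.06 and P4ha2 by 0.22 ± 0.05. Lox, the enzyme that starts collagen cross-links, fell by -0.54 ± 0.10 there, and its effect differed from that in SBN/y by -0.61 ± 0.14 (limma adjusted p = 0.0242). In SBN/y only P4ha1 of the 24 was called, at 0.34 ± 0.08, beside 0.288% of all named genes called higher. At an unadjusted p under 0.05 limma gave 6 of the 24 higher and 0 lower there, and 12 higher and 3 lower in SBH/y. Lox was higher in SBH/y than in SBN/y with both kidneys, by 0.55 ± 0.10 (limma adjusted p = 0.000152). After uninephrectomy Lox was not called between the strains. Its fall from that higher level came in the group in which Col1a1, Col1a2, Col5a2 and Col11a1 rose.

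Of 17 receptors for collagens and laminins, 2 rose and 3 fell in SBH/y after uninephrectomy, and 0 were called in SBN/y, where 0 were higher and 2 lower at an unadjusted p under 0.05. Cd44, a matrix receptor of injured tubules, rose by 0.50 ± 0.08 and the heparan sulphate carrier Sdc1 by 0.32 ± 0.07, and both effects differed from those in SBN/y (limma differences 0.55 ± 0.11 and 0.47 ± 0.09, adjusted p = 0.00772 and 0.00871). Dystroglycan, Dag1, a laminin receptor, fell by -0.22 ± 0.05. Between the strains with both kidneys, Itga1 was lower by -0.35 ± 0.10 and Itga6, an alpha subunit of laminin-binding integrins, higher by 0.32 ± 0.09.

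Other basement membrane components were called on both sides: of 18, 4 rose and 4 fell with uninephrectomy in SBH/y and 0 were called in SBN/y, where 1 was higher at an unadjusted p under 0.05. Ecm1 rose by 0.39 ± 0.05 and Smoc1 by 0.40 ± 0.07, while agrin, Agrn, a heparan sulphate proteoglycan of the glomerular membrane, fell by -0.28 ± 0.05 and Vwa1 by -0.23 ± 0.05. For Agrn the effect differed from that in SBN/y by -0.36 ± 0.07 (limma adjusted p = 0.0043). Agrn was higher in SBH/y than in SBN/y with both kidneys, by 0.20 ± 0.05, and lower after uninephrectomy, by -0.17 ± 0.05. Nidogen, Nid1, which links laminin to collagen IV, was higher in SBH/y by 0.31 ± 0.06 with both kidneys. Of 25 other interstitial components, 1 rose and 1 fell in SBH/y after uninephrectomy, Mfap4 by 0.49 ± 0.15 and Sparcl1 by -0.18 ± 0.05, with 0 called in SBN/y (1 higher and 5 lower at an unadjusted p under 0.05). Between the strains 3 of the 25 were higher and 4 lower in SBH/y with both kidneys, and 2 higher and 2 lower after uninephrectomy. Of all named genes 11.8% and 9.69% were called with both kidneys, and 14.9% and 11.9% after uninephrectomy. Sparcl1, a relative of SPARC, was lower by -0.44 ± 0.05 and -0.52 ± 0.05, and Fn1, fibronectin, was higher by 0.21 ± 0.05 and 0.29 ± 0.05.

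Of 10 markers of fibroblasts and pericytes, cells that make fibrillar collagen, 0 were called higher and 1 lower in SBH/y after uninephrectomy, Pdgfra by -0.17 ± 0.05, with 2 higher at an unadjusted p under 0.05. Their mean level was 6.51 to 6.67 with both kidneys and 6.59 to 6.70 after uninephrectomy. Of 8 smooth muscle and myofibroblast genes 1, Des, rose by 0.29 ± 0.06 and 1, Myh11, fell by -0.21 ± 0.06. Macrophage genes stood beside the strain differences. Of 8, 5 were higher in SBH/y with both kidneys and 7 after uninephrectomy, beside 11.8% and 14.9% of all named genes. Mean levels of the 8 were 7.76 to 8.15 and 7.85 to 8.15 in SBH/y, against 7.42 to 7.72 and 7.44 to 7.63 in SBN/y. In SBH/y 2 of the 8 rose with uninephrectomy, Csf1r by 0.33 ± 0.06 and C1qb by 0.29 ± 0.08. Of 5 mesangial genes 1, Sfrp2, rose there by 0.30 ± 0.08 and differed from SBN/y by 0.45 ± 0.11 (limma adjusted p = 0.0385). Of 6 genes of the thick ascending limb and distal tubule 3 were lower in SBH/y with both kidneys and 4 after uninephrectomy. All named genes gave 9.69% and 11.9% lower. Calb1 was lower by -0.86 ± 0.11 and -1.02 ± 0.11. The mean level of the 6 was 9.88 to 10.17 and 9.99 to 10.23 in SBH/y against 10.23 to 10.41 and 10.47 to 10.65 in SBN/y. With uninephrectomy 2 of the 6 rose in SBN/y and 3 in SBH/y, beside 0.288% and 4.85% of all named genes. Of 8 endothelial genes 2 were lower in SBH/y with both kidneys and 6 after uninephrectomy, beside 9.69% and 11.9% of all named genes. With uninephrectomy 2 of the 8 fell in SBH/y and 0 in SBN/y, and 0 were called for the interaction. Adipose genes varied most in SBN/y, with mean levels of 6.01 to 7.15 with both kidneys and 5.62 to 7.12 after uninephrectomy, against 5.88 to 6.28 and 5.71 to 6.31 in SBH/y. Of 6 cartilage and bone genes 1 was above the array median, Matn1, which was lower in SBH/y by -2.94 ± 0.17 and -3.41 ± 0.17. The part of these cell types in the chains' differences was not tested.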

How the data were processed

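Per the labels' protocols, RNA was purified on silica columns and biotin-labelled by the array maker's procedure. The authors deposited log2 values of 31099 probe sets on 28 arrays, 7 in each of 4 groups; the submitters' processing notes name GCOS, the scanner software, and RMA, which corrects background, quantile-normalizes and summarises probe sets, whose versions are not given in the sources used here. Whether RMA was run once over all arrays is likewise not given, and RMA hides differences in total RNA. Control probe sets (57) were removed. Of 31042 left, 20826 had 1 gene symbol, 436 several and 9780 none, and 20758 were matched by gene identifier to RefSeq's GRCr8 table.

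The test was limma's (version 3.58.1, R 4.3.3; lmFit, contrasts.fit, eBayes), with 1 mean per group over all 28 arrays and Benjamini-Hochberg adjustment over all probe sets, at 0.05. The procedure was tested on simulated data. Values after ± are standard errors. The interaction subtracts the SBN/y effect of uninephrectomy from that of SBH/y. Every chain could be named. Ranges were given for a panel of chains and for up to 6 called chains of largest difference per comparison, and up to 4 genes of smallest p were named from each other list. Members and lists were chosen with earlier results of these data known. Alternatives were another quantile normalization, median centring, leaving out the dimmest 40% of probe sets, the mean of a gene's probe sets, eBayes with trend and robust, array weights, a replicate block, only the compared groups, and leaving out each array. Upstream sequences came from RefSeq's GRCr8 annotation. The number of arrays limits the precision.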

Additional observations from a re-analysis of the deposited data

Results flagged for a closer look

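In 9 of 100 groups of 7 arrays examined, for 25 of the chains, 1 array lay far from the rest by Dixon's ratio of gap to range, and chance alone gives about 1 in 20. In SBN/y with both kidneys these were Col1a1 in replicate 2 at 7.20 (nearest array 7.46), Col6a1 in replicate 5 at 7.65, Col6a5 in replicate 2 at 4.80 and Col8a1 in replicate 5 at 4.80. In SBN/y after uninephrectomy Col4a4 in replicate 3 stood at 7.33, above the next array at 7.03. In SBH/y with both kidneys Col11a1 in replicate 7 was at 5.21, below the next at 5.46. In SBH/y after uninephrectomy Col15a1 in replicate 2 was at 6.79, below the next at 7.14, Lama2 in replicate 3 at 7.70 and Lamb1 in replicate 6 at 9.59.

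The effect of uninephrectomy differed between the strains by limma's interaction term for 4 chains. It was more positive in SBH/y by 0.49 for Col1a1, 0.45 for Col15a1 and 0.38 for Lama1, and more negative by -0.50 for Col17a1. Of these, Lama1 alone kept its call on leaving out each of the 28 arrays in turn.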

How the results depend on the processing

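No value changed sign among the called chains. Leaving out each array of the compared groups gave, for strain with both kidneys, 8 to 9 chains higher and 7 to 9 lower; for strain after uninephrectomy, 11 to 14 and 5 to 6; for uninephrectomy in SBN/y, 0 to 0 and 0 to 1; in SBH/y, 6 to 10 and 2 to 2; and for the interaction, 1 to 5 and 0 to 2. Array weights gave 11 chains lower between strains with both kidneys, 2 lower with uninephrectomy in SBN/y, and 5 higher and 2 lower for the interaction. Lama1's call in SBN/y was lost, leaving 0, with median centring (adjusted p = 0.0528), trend and robust (0.0506) and only the compared groups (0.132). With the mean of all probe sets 5 chains rose with uninephrectomy in SBH/y and 1 interaction was positive; the calls lost include Col1a1 (0.22), Col5a2 (0.19) and Col6a3 (0.15), each averaged with a second probe set that was not called. For the interaction 2 chains were lower without the dimmest 40% of probe sets, with trend and robust, and with the array interquartile range as a covariate, which was chosen after seeing the data, as was leaving out SBH/y replicates 6 and 7 with both kidneys, where 6 chains rose and 2 fell in SBH/y. The cause of the other shifts was not tested.

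The replicate numbers were not taken as pairing the samples, since the labels do not name them as pairs. Deviations of same-numbered arrays were correlated over 0.1 in 3, 4, 5 and 4 of 7 pairs. The order is the strain comparisons (both kidneys, then 1) and the uninephrectomy comparisons (SBN/y, then SBH/y). In 1, 4, 5 and 3 of the 7 the correlation was highest with the own number, with r up to 0.59, a hint from the data and not from the design. With the replicate block 4 chains fell with uninephrectomy in SBH/y. Over all probe sets the block moved the calls from 144 to 280 for uninephrectomy in SBN/y and from 439 to 812 for the interaction. Array weights gave 225 and 899 and the covariate 269 and 746 there, and only the compared groups 60 in SBN/y. Signal over background was not measured, which limits what can be said of the 19 dim chains.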
